A study of Mus musculus with 18 samples.

Results

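The genes described here encode the sensors of foreign or misplaced nucleic acid and the adaptors and kinases through which they activate the transcription factor IRF3. They are 10 of the 33440 genes to which the reads of this mouse series were assigned, and were chosen by name for their role: the cytosolic RNA sensors Ddx58 (RIG-I), Ifih1 (MDA5) and Dhx58 (LGP2), the endosomal sensor Tlr3, the Z-nucleic acid sensor Zbp1, the adaptors Mavs, Tmem173 (STING) and Ticam1 (TRIF), and the kinases Tbk1 and Ikbke (IKKε). All 10 passed the filter on low counts in each of the 3 comparisons made here.

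The study asked which genes act downstream of IRF3 in adipocytes, and sequenced RNA from 18 C57BL/6 libraries in 2 experiments. In the first, stromal vascular fraction (SVF) cells from the inguinal fat (iWAT) of IRF-2D mice were differentiated into adipocytes in culture. These mice carry an allele of a constitutively active IRF3 that is silent until Cre acts on it. The cells received an adeno-associated virus (AAV) with Cre (FI3OE, 3 libraries) or with GFP (WT, 3 libraries), so that the IRF-2D allele and the virus were common to both groups, and Cre and active IRF3 differed together. In the second, RNA bound to adipocyte ribosomes was taken from the epididymal fat (eWAT) of mice fed a high-fat diet (HFD) for 8 weeks at thermoneutrality by translating ribosome affinity purification (TRAP), which pulls down a GFP-tagged ribosomal protein. The mice were Ad-NuTRAP (WT, 6 libraries) or FI3KO-Ad-NuTRAP, which lack IRF3 in adipocytes through Adipoq-Cre (FI3KO, 6 libraries). The labels carry the TRAP protocol for the cultured cells as well, although the design text gives TRAP for the tissue alone. They name no animal, litter or date.

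RIG-I and MDA5 bind viral RNA in the cytosol and signal through MAVS on the mitochondrial surface. LGP2 has the same RNA-binding fold but lacks the signalling domains and modulates the other two. TLR3 detects double-stranded RNA in endosomes and signals through TRIF, while STING responds to the cyclic dinucleotide that cGAS makes from cytosolic DNA. Each adaptor recruits TBK1 or IKKε, which phosphorylate IRF3, and IRF3 then switches on type I interferon and other antiviral genes. ZBP1 binds Z-form nucleic acid and can start RIPK3- and MLKL-dependent necroptosis. Several of the sensors are themselves interferon-stimulated genes, which makes them both the input and the output of the pathway.

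Libraries of SVF-derived adipocytes held 21541334 to 36932452 reads and TRAP libraries 25259869 to 40490283. Irf3 itself was higher in all 3 FI3OE libraries (90.8 to 100.3 CPM, reads per 1000000 reads of a library) than in the 3 WT libraries (56.8 to 58.6 CPM). In TRAP it spanned 12.4 to 18.8 CPM in FI3KO and 17.2 to 23.2 CPM in WT. Among its several coding transcripts, Irf3-202 was given 0 reads in every FI3KO library against 164 to 388 in WT. Others held reads in FI3KO: Irf3-211 had 89.9 to 175 against 0 to 7.65 in WT, and Irf3-213 had 81.7 to 133 against 0 to 175. The fitted log2 fold change of Irf3 in FI3KO was -0.35, and 0.71 with an offset for transcript length. In WT TRAP, replicates 1 and 2 stood apart from replicates 3 to 6. The median chi-square of a pair of libraries, relative to sampling noise, was 13.1 to 18.7 across these sets. Within replicates 3 to 6 it was 2.94 to 11.2. In FI3KO the ranges overlapped, at 11.9 to 23.3 across the sets and 3.67 to 14.0 within replicates 3 to 6. Results in TRAP are also given within each set. The labels do not say what the sets share. WT TRAP replicates 1 and 2 were closer to each other than any other pair of their group, but differed by more than sampling noise and were kept as separate libraries. Adipocyte markers were abundant throughout (summed level 13287 to 13974 CPM in culture and 35204 to 47749 CPM in TRAP, led by Lpl). Culture also held macrophage markers (2351 to 2590 CPM, led by Lyz2 at 769 ± 24.7 CPM in WT; SD, n = 3) and preadipocyte markers (13005 to 14204 CPM, led by Col1a1). In TRAP the sums were 15.0 to 152 CPM for macrophage and 554 to 2225 CPM for preadipocyte markers. In bulk RNA, fewer cells of a type and less RNA per cell cannot be told apart.

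The RNA sensors rose in FI3OE adipocytes. Zbp1 rose most among the 10 genes, 3.12-fold, and all 3 RIG-I-like receptors and Tlr3 rose between 1.95-fold and 2.24-fold. STING and IKKε rose less, while the remaining adaptors and TBK1 did not pass the test. With edgeR (quasi-likelihood test, p-values adjusted by Benjamini and Hochberg over 16105 genes), 3 of the 10 met both cutoffs in the upward direction (adjusted p of at most 0.05 and log2 fold change of at least 1), against 1.99% of all genes tested. At the adjusted p alone 7 rose and 0 fell, against 20.2% and 16.8% of all genes. The median log2 fold change of the 10 was 0.69, and that of all genes tested was -0.0047.

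**Figure D1:**
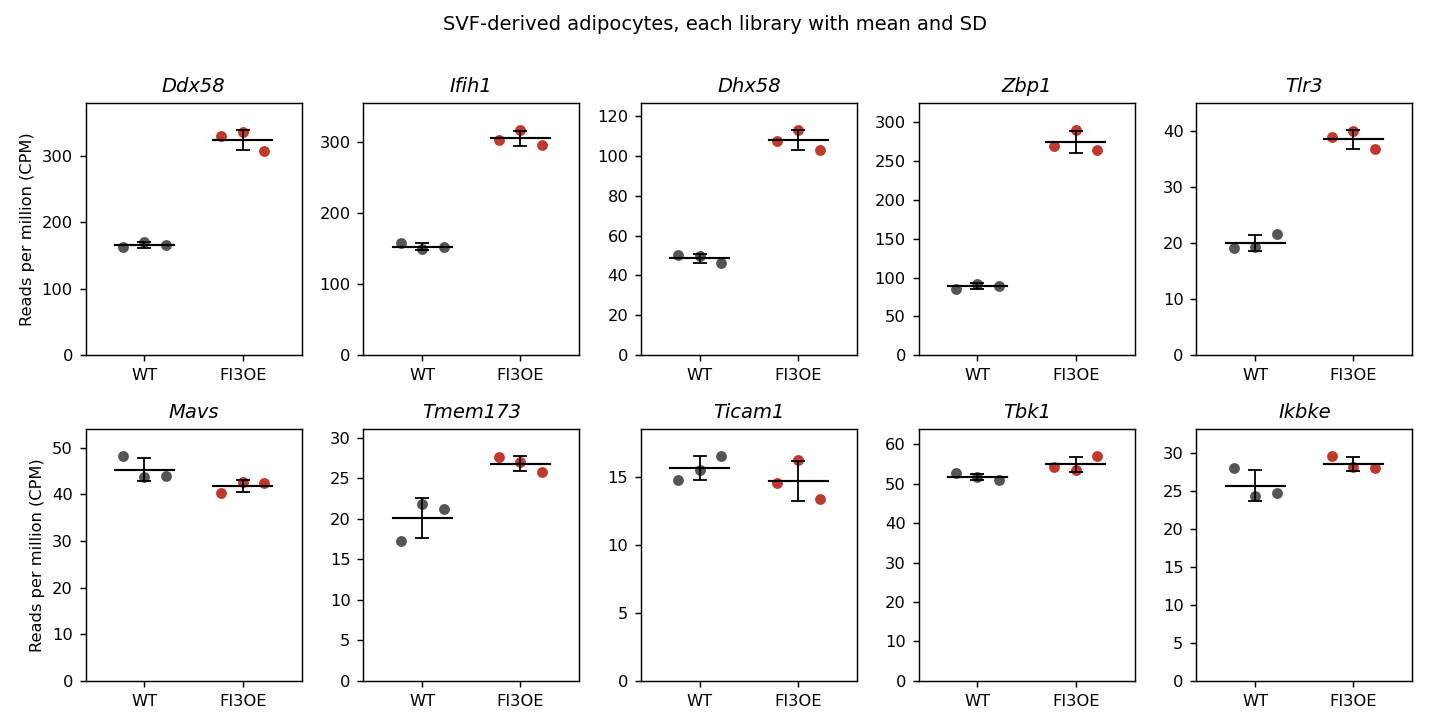
Level of each gene in SVF-derived adipocytes, in CPM on linear axes that start at 0. Points are libraries (3 WT, 3 FI3OE), the line is the mean and the bar 1 SD. The 5 sensors in the top row are higher in every FI3OE library than in any WT library, and in the bottom row Tmem173 is the gene with the largest fold change (1.35-fold).

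Zbp1 (chr2:173206612-173218923, GRCm38) was measured at 270, 290.1 and 264 CPM in the 3 FI3OE libraries and at 85.2, 92.2 and 89.5 CPM in WT. The groups are far apart compared with their spread (275 ± 13.9 against 89.0 ± 3.56 CPM; SD, n = 3 each), and the log2 fold change was 1.64 (standard error, SE, 0.050, adjusted p = 1.47e-09). Zbp1 is a classical interferon-stimulated gene.

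Among the RIG-I-like receptors, Dhx58 (chr11:100694884-100704271) stood at 107, 113 and 103 CPM in FI3OE against 50.0, 49.9 and 46.0 CPM in WT. The fitted difference was 1.16 on the log2 scale (SE 0.048, adjusted p = 1.15e-08). Ifih1 (chr2:62595798-62646255) was at 303, 317 and 296 CPM in FI3OE against 158, 149 and 152 CPM in WT, a difference of 1.02 on the log2 scale (SE 0.041, adjusted p = 9.50e-09). Ddx58 (chr4:40203773-40239828) reached 330, 336 and 307 CPM in FI3OE against 162, 171 and 165 CPM in WT. At a log2 fold change of 0.98 (SE 0.044, adjusted p = 1.95e-08) it lay just below the fold-change cutoff, and Ifih1 just above it. LGP2, the receptor without signalling domains, thus had the lowest WT level of the 3 in CPM and the largest fold change.

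Tlr3 (chr8:45395665-45411080), the endosomal sensor, was at 39.0, 40.1 and 36.8 CPM in FI3OE and at 19.1, 19.3 and 21.7 CPM in WT. The log2 fold change was 0.96 (SE 0.063, adjusted p = 4.45e-07), and no library of a group overlapped the other. Its adaptor Ticam1 did not pass the test: it stood at 14.5, 16.3 and 13.3 CPM in FI3OE against 14.8, 15.6 and 16.6 CPM in WT (log2 fold change -0.07, SE 0.088, adjusted p = 0.548).

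Mavs, the adaptor that RIG-I and MDA5 share, was at 40.4, 42.6 and 42.3 CPM in FI3OE and at 48.3, 43.8 and 43.9 CPM in WT. The 3 FI3OE values lay below all WT values, but the difference was small (log2 fold change -0.10, SE 0.050) and did not pass the test (adjusted p = 0.146). Tmem173, the adaptor of DNA sensing, was at 27.7, 27.0 and 25.8 CPM in FI3OE against 17.3, 21.9 and 21.3 CPM in WT. It rose by 0.43 on the log2 scale (SE 0.082, adjusted p = 0.00168), but its adjusted p was 0.443 in a fit of all 18 libraries.

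Differences in the kinases were small. Tbk1 was at 54.2, 53.4 and 57.1 CPM in FI3OE against 52.6, 51.6 and 50.9 CPM in WT (log2 fold change 0.10, SE 0.042, adjusted p = 0.071). Ikbke, the inducible kinase, was at 29.6, 28.1 and 28.0 CPM against 28.0, 24.4 and 24.7 CPM, a difference of 0.17 on the log2 scale (SE 0.060, adjusted p = 0.0441). That call of Ikbke was lost when any of 5 of the 6 libraries was left out (all but WT replicate 1), and the value was -0.02 with an offset for transcript length. For 8 of the 10 genes every FI3OE library lay above every WT library, against 24.1% of all genes tested.

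The sums of macrophage, adipocyte and preadipocyte markers were lower in every FI3OE library than in any WT library, and that of endothelial markers higher. The summed macrophage markers were 2351 to 2362 CPM in FI3OE and 2423 to 2590 CPM in WT; of 16 tested, 5 rose and 3 fell, with Mrc1 lower in FI3OE by 0.87 on the log2 scale. Adipocyte markers summed to 13287 to 13396 CPM in FI3OE and 13799 to 13974 CPM in WT (4 of 12 rose, 5 fell), and preadipocyte markers to 13005 to 13161 against 13791 to 14204 CPM (2 of 11 rose, 3 fell). Endothelial markers summed to 20.1 to 21.01 against 16.1 to 18.3 CPM, mesothelial to 8.69 to 14.8 against 7.90 to 9.21 CPM, and lymphocyte to 0.812 to 1.27 against 0.920 to 1.61 CPM. Which cells of the culture carried the added sensor reads was not tested. Interferon genes were near 0: the 13 type I and III genes looked up summed to at most 0.296 CPM in FI3OE and 0.293 CPM in WT, all 13 were below the filter, and Ifnb1 had 1 read in the 3 FI3OE libraries together and 0 in WT.

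Because interferon-responsive genes share short promoter elements, the RefSeq promoter windows (GRCm38.p6, 250 bases before the start site and 50 after) were searched for GAAANNGAA, the core of the interferon-stimulated response element, and for the NF-kB motif, on both strands. A window was found for 7 of the 10 genes. Zbp1, Dhx58 and Tmem173 had no entry. GAAANNGAA occurred upstream in 1 of the 7, Ifih1, on the strand opposite to the gene's, and 7.13% of all 32851 windows hold it in the same 250 bases. Ifih1 had another match after its start site and Ddx58 had 1, beginning 3 bases after its own. The NF-kB motif occurred in 1 of the 7, Tlr3, and in 3.90% of all windows. The 2 upstream stretches are shown because they belong to called sensors, in the direction of transcription, with the motif in capitals; a match in letters says nothing about whether a factor binds there.
Ifih1, chr2:62646299-62646427, minus strand: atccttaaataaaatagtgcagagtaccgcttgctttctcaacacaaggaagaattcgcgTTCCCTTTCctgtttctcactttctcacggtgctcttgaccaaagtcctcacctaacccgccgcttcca
Tlr3, chr8:45410522-45410630, minus strand: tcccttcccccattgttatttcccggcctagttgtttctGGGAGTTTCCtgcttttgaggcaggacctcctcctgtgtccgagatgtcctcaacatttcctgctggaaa

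Most of the added sensor reads fell on coding transcripts. For Zbp1, the retained-intron transcript took 10.2 to 11.5% of the gene's reads in FI3OE and 14.0 to 17.6% in WT, while its coding transcripts held 5704 to 8739 reads per FI3OE library and 1678 to 1920 per WT library, not scaled to depth. For Ddx58, the 8 transcripts not annotated as coding took 15.7 to 17.3% in FI3OE against 19.0 to 23.0% in WT. For Ifih1 the shares overlapped (13.9 to 15.3% against 14.9 to 16.2%). No test was run on these shares, which rest on Salmon's division of reads among overlapping transcripts.

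In ribosome-bound RNA of eWAT adipocytes, Zbp1 fell 2.28-fold in FI3KO and was the only 1 of the 10 to meet both cutoffs. Tlr3, Tbk1 and Ikbke also fell, whereas the 3 RIG-I-like receptors, Mavs and Ticam1 did not pass the test. By the same test over 13624 genes, 1 of the 10 met both cutoffs in the downward direction, against 4.87% of all genes. At the adjusted p alone 4 fell and 0 rose, against 18.3% and 19.1% of all genes. The median log2 fold change of the 10 was -0.19, and that of all genes was 0.02.

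**Figure D2:**
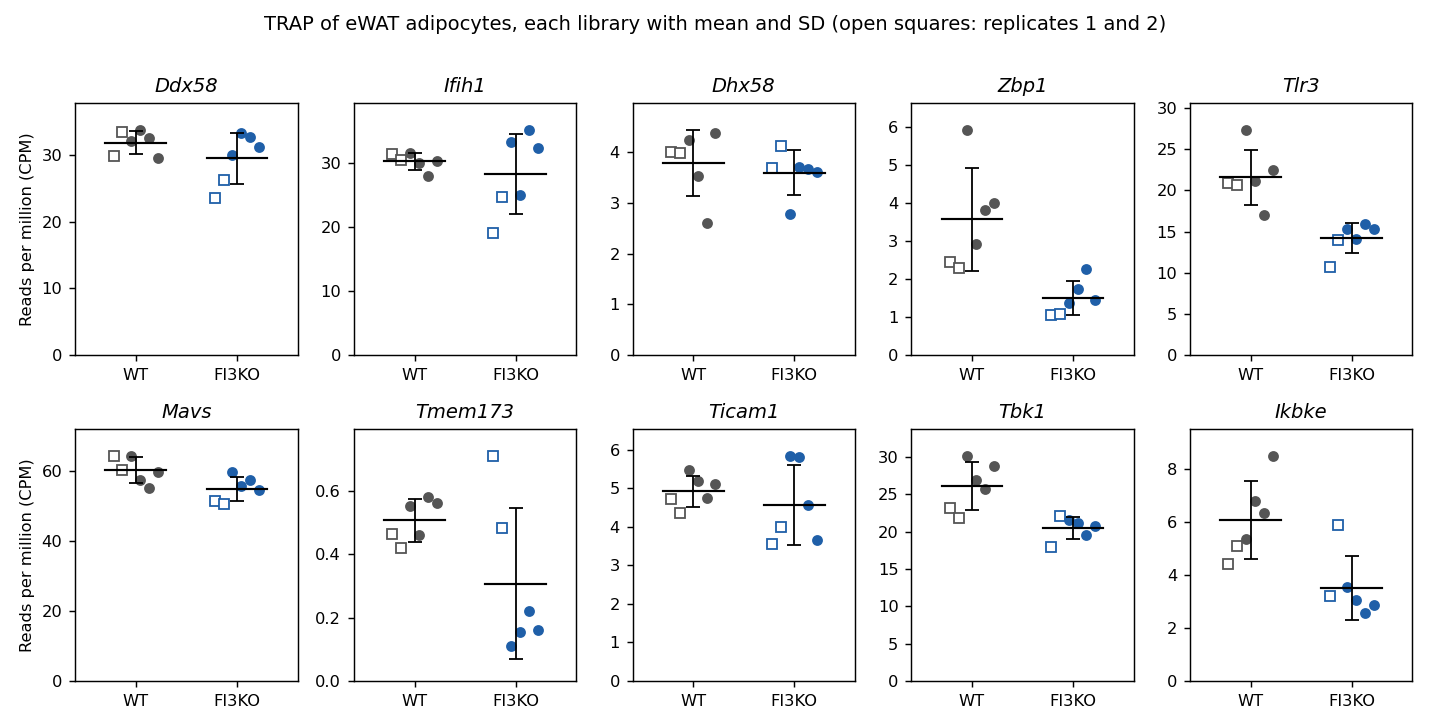
Level of each gene in TRAP from eWAT, in CPM on linear axes that start at 0. Points are libraries (6 WT, 6 FI3KO; open squares are replicates 1 and 2), the line is the mean and the bar 1 SD. For Zbp1 and Tlr3 every FI3KO library lies below every WT library, and for Tmem173 both open squares of FI3KO lie above its filled points.

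Zbp1 spanned 1.07 to 2.27 CPM in FI3KO (median 1.405) and 2.29 to 5.93 CPM in WT (median 3.37). All 6 FI3KO libraries lay below all 6 WT libraries. The log2 fold change was -1.19 (SE 0.248, adjusted p = 0.00295), on 27 to 92 reads per FI3KO library and 74 to 193 per WT library. Without WT replicate 3, the highest, the change fell just short of the fold-change cutoff, with an adjusted p of 0.00683 by edgeR.

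Tlr3 spanned 10.7 to 15.9 CPM in FI3KO (median 14.7) and 17.1 to 27.3 CPM in WT (median 21.01). The groups again did not overlap, and the log2 fold change was -0.55 (SE 0.103, adjusted p = 0.00154). Zbp1 and Tlr3 were the 2 of the 10 genes whose FI3KO libraries all lay below the WT libraries, against 9.82% of all genes.

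The kinases fell by smaller or more variable amounts. Tbk1 spanned 17.97 to 22.1 CPM in FI3KO (median 20.98) and 21.9 to 30.2 CPM in WT (median 26.3), with 5 of 6 FI3KO libraries below every WT library and a difference of -0.30 on the log2 scale (SE 0.073, adjusted p = 0.00717). In replicates 1 and 2 alone the genotypes overlapped (-0.11, SE 0.112, adjusted p = 0.554 by edgeR). In replicates 3 to 6 alone they did not overlap (-0.38, SE 0.060, adjusted p = 0.000455 by edgeR). The interaction for Tbk1 did not pass the test (-0.27, SE 0.119, adjusted p = 0.111 by edgeR). Ikbke spanned 2.54 to 5.86 CPM in FI3KO (median 3.13) and 4.41 to 8.49 CPM in WT (median 5.84), a difference of -0.74 on the log2 scale (SE 0.211, adjusted p = 0.0155). FI3KO replicate 2 held the highest Ikbke value of its group, inside the WT range. With an offset for transcript length the Ikbke change was -0.68 and its adjusted p was 0.0996.

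The RIG-I-like receptors overlapped between genotypes. Ddx58 spanned 23.6 to 33.3 CPM in FI3KO and 29.6 to 33.7 CPM in WT (log2 fold change -0.07, SE 0.077, adjusted p = 0.518). Ifih1 spanned 19.1 to 35.1 CPM against 27.9 to 31.5 CPM (-0.05, SE 0.117), and Dhx58 2.78 to 4.12 CPM against 2.60 to 4.38 CPM (-0.03, SE 0.142). Of the adaptors, Mavs spanned 50.7 to 59.8 CPM against 55.1 to 64.4 CPM (-0.09, SE 0.053) and Ticam1 3.56 to 5.85 CPM against 4.35 to 5.47 CPM (-0.06, SE 0.130).

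**Figure D3:**
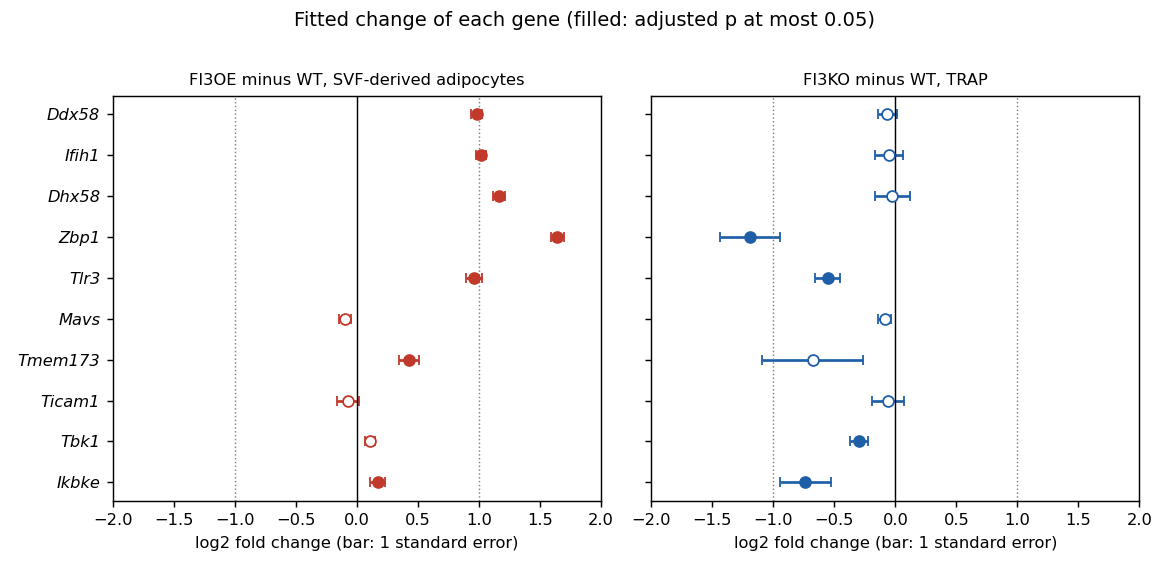
Fitted log2 fold change of each gene with 1 SE, FI3OE minus WT in SVF-derived adipocytes (left) and FI3KO minus WT in TRAP (right). Filled points have an adjusted p of at most 0.05, and dotted lines mark the fold-change cutoff. Zbp1, Tlr3 and Ikbke are filled on opposite sides of 0 (1.64, 0.96 and 0.17 on the left, -1.19, -0.55 and -0.74 on the right), while Ddx58, Ifih1, Dhx58 and Tmem173 are filled on the left only and Tbk1 on the right only.

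The 2 sets of TRAP replicates gave different pictures for some genes. In replicates 3 to 6 alone, 5 of the 10 fell at the adjusted p and 3 met both cutoffs, against 24.8% and 9.60% of all genes. In replicates 1 and 2 alone, with 2 libraries a group, 0 of the 10 fell at the adjusted p, against 1.98% of all genes. A test of the interaction of genotype with replicate set called 3 of the 10, against 26.5% of all genes. The 10 genes thus did not stand out from all genes in this test. The sets were drawn from earlier results of these data, and p-values within sets and of the interaction do not allow for that choice.

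Tmem173 differed most between the sets. In replicates 3 to 6 it was at 0.111, 0.155, 0.222 and 0.160 CPM in FI3KO against 0.553, 0.461, 0.583 and 0.564 CPM in WT, -1.63 on the log2 scale (SE 0.310, adjusted p = 0.00153) on 3 to 9 and 15 to 18 reads per library. In replicates 1 and 2 it was at 0.713 and 0.483 CPM in FI3KO against 0.465 and 0.422 CPM in WT (0.48, SE 0.411). The effect was lower by 2.11 on the log2 scale in replicates 3 to 6 (SE 0.478, adjusted p = 0.00721), and over all 12 libraries the change did not pass the test (-0.68, adjusted p = 0.215). Leaving out FI3KO replicate 1 alone brought it to -1.11, with an adjusted p of 0.0294 by edgeR.

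Ikbke followed the same division. In replicates 3 to 6 the 4 FI3KO libraries (2.54 to 3.55 CPM) lay below the 4 WT libraries (5.34 to 8.49 CPM), a difference of -1.13 on the log2 scale (SE 0.162, adjusted p = 0.000273). In replicates 1 and 2 the values were 3.21 and 5.86 CPM in FI3KO and 4.41 and 5.09 CPM in WT (-0.00, SE 0.281). The difference of the effects was -1.118 (SE 0.327, adjusted p = 0.0254), and it did not pass without WT replicate 1, WT replicate 2 or FI3KO replicate 2.

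For Ifih1 the effects differed in the other direction. In replicates 1 and 2 FI3KO stood at 19.1 and 24.6 CPM against 31.4 and 30.4 CPM in WT (-0.44, SE 0.121, adjusted p = 0.0975). In replicates 3 to 6 it spanned 25.0 to 35.1 CPM in FI3KO and 27.9 to 31.5 CPM in WT (0.12, SE 0.0996). The effects differed by 0.56 (SE 0.177, adjusted p = 0.0359), a call that was lost without any 1 of 9 of the 12 libraries. Zbp1, by contrast, was lower by a like amount in each set: -1.07 (SE 0.226, adjusted p = 0.0615) in replicates 1 and 2 and -1.23 (SE 0.240, adjusted p = 0.00179) in replicates 3 to 6, with no overlap of genotypes in either. Tlr3 fell short of the adjusted p in replicates 1 and 2 (-0.69, adjusted p = 0.0521) and passed in replicates 3 to 6 (-0.49, adjusted p = 0.00552). For these 2 genes the interaction was -0.16 (SE 0.402) and 0.20 (SE 0.205), and neither passed the test.

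Macrophage markers moved with genotype in TRAP, and with the same division of replicates. Of 18 markers none was at 0 in a whole group, 14 were tested and 13 fell past both cutoffs in FI3KO (median log2 fold change -1.68). Their sum was 42.7 to 53.8 CPM in FI3KO replicates 1 and 2, where WT held 46.6 to 47.1 CPM, and 15.0 to 20.5 CPM in FI3KO replicates 3 to 6, where WT held 92.7 to 152 CPM. Preadipocyte markers summed to 993 to 1044 CPM in FI3KO and 984 to 993 CPM in WT in replicates 1 and 2, and to 554 to 939 CPM against 1574 to 2225 CPM in replicates 3 to 6. Over all 12 libraries 9 preadipocyte markers were tested. Of these 2 fell (Col1a1, 271 against 1005 CPM on average, and Dpp4) and 1 rose (Dcn, 68.5 against 27.3 CPM). Endothelial markers were 70.3 to 117 CPM in FI3KO replicates 1 and 2, against 26.6 to 56.5 CPM in the other TRAP libraries. Mesothelial markers (3.28 to 16.4 CPM in FI3KO, 4.24 to 28.0 CPM in WT) and lymphocyte markers (0.123 to 0.612 and 0.154 to 0.461 CPM) overlapped between genotypes. Adipocyte markers summed to 35204 to 41377 CPM in FI3KO and 40697 to 47749 CPM in WT, with Lep at 2975 against 9581 CPM on average. Of the 12, Lep was the only 1 to fall at the adjusted p, and 5 rose. The part of these cells in the changes of any of the 10 genes was not tested. The 13 interferon genes summed to 0.0307 to 0.311 CPM in WT and 0.0320 to 0.158 CPM in FI3KO, 0 of them was tested, and Ifnb1 had 0 reads in all 12 libraries.

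The order of the 10 genes was not the same in culture and in TRAP. Per length, in TPM (transcripts per 1000000, scaled to length), the order in WT culture was Zbp1 (132 ± 6.71), Ddx58 (110 ± 1.51), Ifih1 (83.9 ± 6.85), Tbk1 (52.0 ± 4.65), Dhx58 (49.5 ± 7.59), Mavs (29.4 ± 2.23), Tmem173 (26.8 ± 0.840), Ikbke (25.0 ± 2.202), Ticam1 (11.2 ± 0.566) and Tlr3 (10.6 ± 1.92; SD, n = 3). The ranges of Tbk1 and Dhx58 overlapped, as did those of Mavs and Tmem173, of Tmem173 and Ikbke, and of Ticam1 and Tlr3. In WT TRAP the order was Mavs (40.6 ± 2.72), Tbk1 (26.8 ± 5.05), Ddx58 (18.8 ± 0.971), Ifih1 (16.6 ± 1.35), Tlr3 (14.1 ± 1.95), Zbp1 (7.65 ± 2.86), Ikbke (6.14 ± 1.60), Ticam1 (3.83 ± 0.306), Dhx58 (3.67 ± 0.685) and Tmem173 (1.122 ± 0.675; SD, n = 6). There Mavs stood clear of Tbk1, but Tbk1, Ddx58 and Ifih1 each overlapped the next in order, as did Zbp1 and Ikbke, and Ticam1 and Dhx58. Tlr3 stood just clear of Zbp1. In FI3OE the order of the first 3 places was as in WT culture, with Zbp1 at 387 ± 20.5, Ddx58 at 196 ± 8.18 and Ifih1 at 164 ± 9.87 TPM (SD, n = 3). In FI3KO TRAP the first 3 places by mean were as in WT TRAP, with Mavs at 36.9 ± 2.85, Tbk1 at 18.7 ± 3.22 and Ddx58 at 18.3 ± 1.36 TPM (SD, n = 6). Tbk1 and Ddx58 overlapped there, and by median Tbk1 (17.6 TPM) was below Ddx58 (18.2 TPM). With reads divided by the plain mean length of a gene's transcripts in place of TPM, Zbp1 moved from the first place to the fourth in culture and from the sixth to the ninth in TRAP, and Dhx58 as far the other way, from the fifth to the second and from the ninth to the sixth. In TRAP Ddx58 also passed Tbk1 and Tlr3 passed Ifih1, while Mavs stayed first and Tmem173 last.

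**Figure D4:**
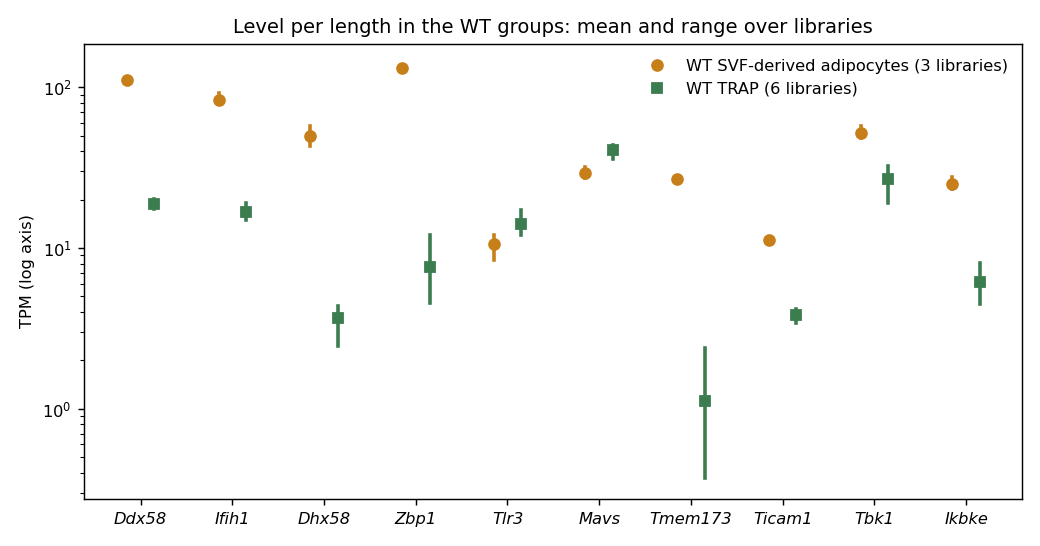
Level of each gene per length in the WT groups, in TPM on a log axis. Symbols are means and lines span the lowest to the highest library (circles, 3 SVF-derived adipocyte libraries; squares, 6 TRAP libraries). Tmem173, Zbp1 and Dhx58 lie furthest apart, while Mavs and Tlr3 are the 2 genes with the higher mean in TRAP.

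Tested between the WT groups over 16454 genes, 7 of the 10 were lower in TRAP past both cutoffs, against 29.5% of all genes, and at the adjusted p alone 8 were lower and 2 higher, against 42.1% and 38.1%. The median log2 fold change of the 10 was -1.75, and that of all genes -0.07. Tmem173 was 28.9-fold lower in TRAP (log2 fold change -4.85, SE 0.130), at 0.508 ± 0.067 CPM (SD, n = 6) against 20.1 ± 2.47 CPM (SD, n = 3). Zbp1 was 18.2-fold lower (-4.19, SE 0.223) and Dhx58 9.29-fold lower (-3.22, SE 0.126). Ddx58 (-1.92), Ifih1 (-1.88), Ikbke (-1.62) and Ticam1 (-1.21) followed, and Tbk1 differed by -0.53. Mavs was higher in TRAP by 0.87 (SE 0.070) and Tlr3 by 0.56 (SE 0.122). The normalization factors of this fit were 1.23 to 1.24 for culture and 0.876 to 0.923 for TRAP, and in unscaled CPM Tlr3 overlapped between the groups (21.6 ± 3.34 CPM in TRAP, 20.02 ± 1.41 CPM in culture; SD, n = 6 and 3). Mouse line (IRF-2D in culture, Ad-NuTRAP in TRAP), depot, culture, diet and virus differed together between these groups. So did, by the design text, the RNA isolation, and the macrophage and preadipocyte markers given above. All of these cannot be told apart. The share of reads on transcripts not annotated as coding was lower in every WT TRAP library than in any WT culture library for 5 of the 10 genes (Ddx58, Ifih1, Mavs, Zbp1 and Tbk1). How many of all genes show this was not counted, so it cannot be read as particular to these genes. For Ifih1 the share was 5.26 to 8.16% against 14.9 to 16.2%. For Dhx58, Tmem173, Tlr3 and Ikbke the ranges overlapped. For Tmem173 the median was higher in TRAP (44.7% against 23.6%), but there it spanned 0 to 79.8% on 14 to 18 reads per library.

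Among 67 other genes of the pathway, chosen by role, 22 rose and 4 fell in FI3OE at the adjusted p (67 tested, median log2 fold change 0.11), and 12 rose and 18 fell in FI3KO (61 tested, median -0.09). Of all genes, 37.0% passed in either direction in the first comparison (20.2% rose and 16.8% fell). In the second 37.4% passed (19.1% rose and 18.3% fell). The counts by role that follow are to be read against these shares. The FI3OE count was 13 in place of 26 in a fit of all 18 libraries.

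**Figure D5:**
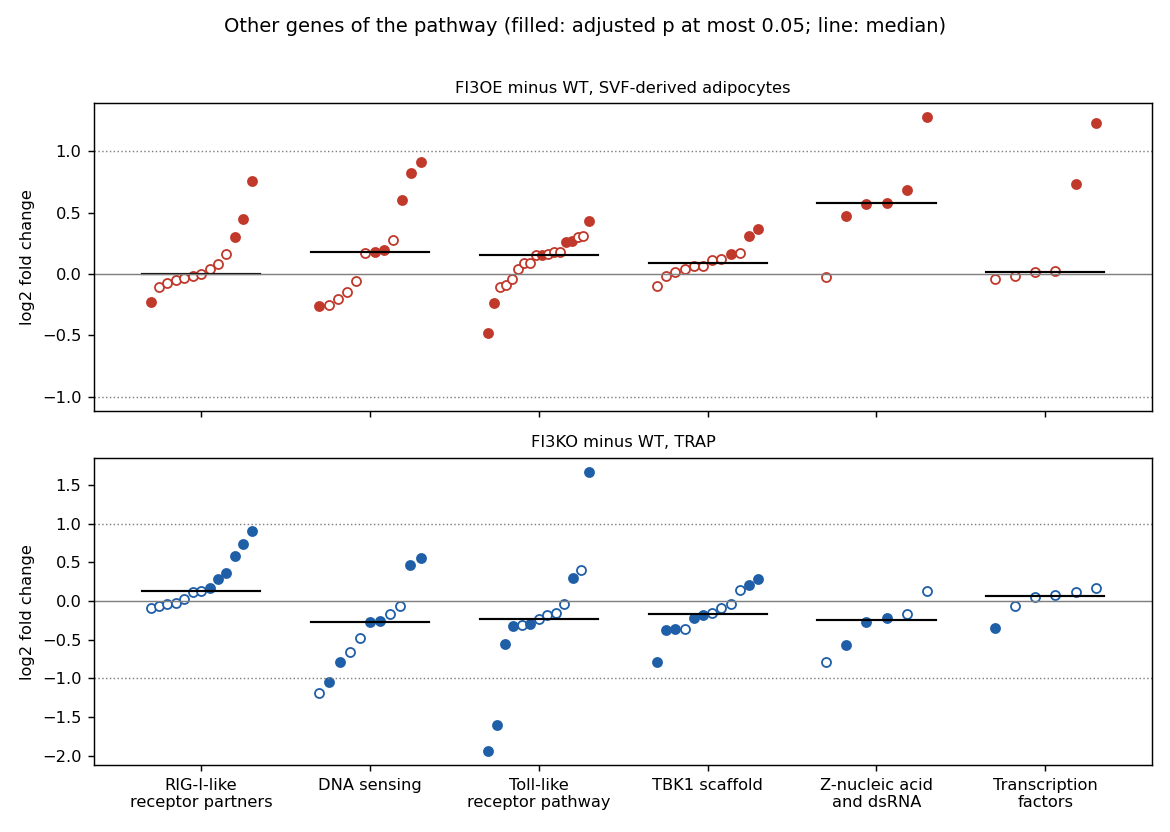
Log2 fold change of other pathway genes by role, FI3OE minus WT (top) and FI3KO minus WT (bottom). Each point is a gene, filled where the adjusted p is at most 0.05, the black line is the median of the list and dotted lines mark the fold-change cutoff. Mlkl and Irf7 lie above the cutoff at the top, and Cd14 above it and Tlr8, Tlr6 and Ifi204 below it at the bottom among filled points.

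Of the 6 genes of the Z-nucleic acid and double-stranded RNA response, 5 rose in FI3OE and 0 fell (median 0.58). Mlkl, the executioner of necroptosis downstream of ZBP1 and RIPK3, rose from 25.1 to 60.2 CPM on average (log2 fold change 1.28, SE 0.052). Adar, Eif2ak2 (PKR), Casp8 and Ripk3 rose by 0.57, 0.58, 0.47 and 0.68. In FI3KO 3 of these 6 fell (median -0.25): Mlkl (-0.58), Eif2ak2 (-0.28) and Casp8 (-0.22).

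Among the partners of RIG-I-like receptors, 3 of 13 rose and 1 fell in FI3OE (median 0.00). The ubiquitin ligases that activate RIG-I, Trim25 and Rnf135, changed by 0.45 and 0.76. In FI3KO 6 of the 13 rose and 0 fell (median 0.13), including Trim25 (0.59), Rnf125 (0.74) and Rnf135 (0.29).

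In DNA sensing, 5 of 12 rose and 1 fell in FI3OE (median 0.18). The nuclear DNA sensor Ifi204 rose by 0.83 and the exonuclease Trex1, which removes cytosolic DNA, by 0.92. In FI3KO 2 of 11 tested rose and 4 fell (median -0.27). The ribonuclease H2 subunits Rnaseh2c and Rnaseh2a rose by 0.56 and 0.47, while Ifi204 fell by 1.04, past both cutoffs, and Rnaseh2b by 0.79. Ifi204 was low in TRAP, at 0.903 CPM in FI3KO and 1.94 CPM in WT on average.

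In the Toll-like receptor pathway, 4 of 18 rose and 2 fell in FI3OE (median 0.16), led by Irak2 (0.43) and the receptor chaperone Unc93b1 (0.27). In FI3KO 2 of 13 tested rose and 5 fell (median -0.24). The co-receptor Cd14 rose by 1.66, from 0.703 to 2.18 CPM, while Tlr8 fell by 1.95 and Tlr6 by 1.61; macrophages express Tlr8, Tlr6 and Cd14 as well, and their mean levels here were at most 4.84 CPM.

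Among the scaffolds that hold TBK1, 3 of 12 rose in FI3OE (median 0.09), with Tbkbp1 at 0.31 and Tradd at 0.37. In FI3KO 2 rose and 5 fell (median -0.17), with Optn lower by 0.37 and Tank lower by 0.79. Tank, which binds both TBK1 and IKKε, went from 109 to 60.6 CPM on average. Of the 6 transcription factors and coactivators, 2 rose in FI3OE (median 0.02), Irf3 by 0.73 and Irf7, the interferon-inducible partner of IRF3, by 1.23. In FI3KO Irf3 alone of these 6 passed the test, at -0.35, with the length offset reversing its sign as above (median of the list 0.06).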

How the data were processed

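Gene-level values were built from the 18 deposited transcript tables. For each, the authors trimmed reads with fastp and quantified them with Salmon (1.4.0) against GENCODE M24 transcripts of GRCm38, with correction for sequence and GC bias. The deposited estimated counts are neither normalized nor whole, and the deposited TPM values are scaled to transcript length and library size by Salmon. Of 118733 transcripts, 117850 matched GENCODE M21 by identifier (117415 with the same version), and 883, with 0.375 to 1.079% of reads, were kept as genes of their own. Counts were summed per gene and rounded, and TPM summed. CPM is reads per 1000000 of a library's total.

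Tests were run with edgeR 4.0.16 (R 4.3.3) on each pair of groups without covariates, after filterByExpr and TMM scaling, by quasi-likelihood, and p-values were adjusted over all genes tested (Benjamini-Hochberg). Cutoffs were the study's. Alternatives were DESeq2 1.42.0, other filters, a transcript-length offset, a fit of all libraries, a replicate block, and leaving out libraries. Promoter windows came from RefSeq. On simulated data with 200 genes changed by 1.5 on the log2 scale, 197 were recovered for the FI3OE comparison (16105 genes) and 200 for FI3KO (13624 genes). The simulation gave all genes the same dispersion and changed only genes above a minimum mean count. It therefore does not describe recovery for genes with few reads or for more variable genes. The members and lists were chosen with earlier results of these data known. Named genes were, by rule, all 10 members, Irf3, Ifnb1, in each list those past both cutoffs (at most 4 a direction) or otherwise the 2 with the smallest adjusted p, and the most abundant markers; others are named to complete a list. Lists are described by counts and medians, with no set test. Replicates are labelled biological, and p-values measure the spread between these libraries. Limits from depth cover counting error only.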

Additional observations from a re-analysis of the deposited data

Results flagged for a closer look

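Among 22 sets of 6 TRAP libraries (the 10 genes and Irf3 in each genotype), 1 held a library set apart from the rest by Dixon's test at 95%, a rate that chance gives about 1 in 20 times. It was Ikbke in FI3KO replicate 2, at 5.86 CPM, where the other FI3KO libraries lay at 3.55 CPM or less. The effect of FI3KO differed between replicates 3 to 6 and replicates 1 and 2, by a test of the interaction, for Tmem173 (-2.11 on the log2 scale, adjusted p = 0.00721), Ikbke (-1.118, adjusted p = 0.0254) and Ifih1 (0.56, adjusted p = 0.0359) by edgeR. The same test called 26.5% of all genes, a share near that of the 10. The sets were drawn from earlier results of these data, which these p-values do not allow for. Without FI3KO replicate 2 the difference for Ikbke was -0.63 and did not pass.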

How the results depend on the processing

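With no fold-change cutoff, 7 of the 10 genes were called in FI3OE and 4 in FI3KO, in place of 3 and 1. In FI3KO 0 were past both cutoffs with replicates 1 and 2 only and 3 with replicates 3 to 6 only. Leaving out 1 library at a time gave 2 to 4 in FI3OE and 0 to 2 in FI3KO (0 without WT replicate 3, 2 without FI3KO replicate 1), and 7 throughout between the WT groups. Of other pathway genes, 13 in place of 26 passed in FI3OE in a fit of all 18 libraries, and 2 in place of 30 in FI3KO with replicates 1 and 2 only. Genes whose FI3KO effect differed between the sets numbered 1 to 4 when 1 library was left out (1 without WT replicate 1 or 2), in place of 3. With an offset for transcript length the called values of Ikbke in FI3OE (-0.016) and Irf3 in FI3KO (0.71) turned sign, as did Ddx58 in FI3KO (0.03), which was called in neither fit; the cause was not tested. In FI3KO the uncalled values of Ddx58, Ifih1, Dhx58 and Tmem173 also turned sign in 1 of the replicate sets, and those of Ifih1 and Dhx58 without single libraries. The adjusted p of Ikbke in FI3OE was 0.0102 to 0.910 by edgeR over its alternatives. Over all genes, 1572 passed the adjusted p in FI3OE with 18 libraries and 3800 with the length offset, in place of 5960; in FI3KO 574 (at least 10 counts in every library), 1355 (18 libraries), 191 (replicates 1 and 2) and 1868 (replicates 3 to 6) were past both cutoffs, in place of 901. Between the WT groups the median of all genes was -0.43 by the DESeq2 Wald test and -0.36 with no filter, in place of -0.07. Same-numbered libraries did not deviate together (correlations -0.03 to 0.03 in culture, -0.34 to 0.11 in TRAP). These correlations cannot show whether such libraries shared a batch, and TRAP replicates 1 and 2 stood apart in WT and less clearly in FI3KO. With the replicate block, 3 genes were called in FI3OE and 1 in FI3KO, and Irf3 in FI3KO lost its call (-0.36). The division of TRAP libraries into replicate sets was drawn from earlier results of these data. The alternatives on the difference between replicate sets and on pathway genes, and the sum of WT TRAP replicates 1 and 2 as 1 library (1 gene past both cutoffs), were chosen after seeing the data. Tmem173 and Zbp1 in TRAP rest on few reads, and differences of that size in genes at such depth may go undetected.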
